A study of Mus musculus with 17 samples.

Results

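A set of 10 genes for receptors of peptides, endocannabinoids and noradrenaline were followed in mouse sympathetic ganglia carrying an activated Alk receptor: Agtr2, Agtr1a, Cckar, Cnr1, Npy1r, Adra2a, Adra2c, Adcyap1r1, Vipr1 and Sstr2. They were chosen from measured values of these same arrays, for their level or for their differences between genotypes and stages, so their values are given as a description. Of the 10 genes, 9 had a probe set named for them among the 17306 probe sets of the table. Adra2a was not analysed here. Of these 9, 6 exceeded a log2 value of 4 in at least 2 of the 17 arrays and entered the fit across 9973 probe sets (Agtr2, Agtr1a, Cckar, Cnr1, Npy1r and Adra2c), and 3 did not (Adcyap1r1, Vipr1 and Sstr2).

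Each array held RNA of superior cervical and stellate ganglia, which were pooled, from C57BL/6 knock-in (KI) mice of the Alk F1178L line or from Wt mice. F1178L is a point mutation in the kinase domain of Alk, the receptor tyrosine kinase that is mutated in neuroblastoma, and it leaves the kinase active without ligand. At postnatal day 18 (P18) there were 2 arrays of heterozygous (Het) mice, with 1 mutated allele, and 3 of wild-type (Wt) mice. At the day of birth (P0) there were 4 arrays of homozygous (Hom) mice, with both alleles mutated, 4 of Het mice and 4 of Wt mice. The mutation was carried by the endogenous Alk locus and was therefore present in every Alk-expressing cell of the animal, with lox sites left on both sides of the mutated exon. No further allele or treatment is named for these mice, and the labels give neither litter nor sex. Nothing states that arrays of a group came from separate animals or pools, so that p-values measure the spread between these arrays only. All P18 arrays differ from all P0 arrays in whatever else separated the collections, so stage and collection cannot be told apart. The Alk probe set cannot tell the mutated from the normal allele. Its log2 value was 7.60 and 7.74 in P18 Het arrays against 5.85 to 6.98 in P18 Wt arrays, and at P0 it was 9.17 to 9.63 in Hom, 9.06 to 9.23 in Het and 8.31 to 8.60 in Wt arrays.

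The members all belong to the class of receptors that span the membrane with several helices and signal through heterotrimeric G proteins. Sympathetic neurons release noradrenaline together with neuropeptides such as neuropeptide Y, and such receptors, on the neurons or on the cells around them, adjust release, excitability and growth. Receptors coupled to Gi lower cyclic AMP and close presynaptic calcium channels, those coupled to Gs raise cyclic AMP, and those coupled to Gq release calcium through phospholipase C. Cnr1 encodes the cannabinoid receptor CB1, a presynaptic Gi-coupled receptor of endocannabinoids. Agtr2 and Agtr1a encode the AT2 and AT1 receptors of angiotensin II, of which AT2 is found mainly in fetal tissue and AT1 mediates the pressor action of the hormone. Npy1r encodes the Y1 receptor of neuropeptide Y, Cckar the receptor of sulphated cholecystokinin, and Adra2c an inhibitory receptor of noradrenaline that restrains its own release. Adcyap1r1 encodes the PAC1 receptor of PACAP, Vipr1 a receptor shared by VIP and PACAP, and Sstr2 a receptor of somatostatin.

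The sequence around the annotated start of 4 of the genes is shown because these genes moved apart between genotypes and stages: Cnr1 and Agtr2 had higher values in P0 Hom ganglia, Npy1r lower ones, and Adra2c differed between stages. Each sequence is 300 bases of the mouse genome from RefSeq (GRCm38.p6), 250 before and 50 after the start, on the plus strand. The palindromic cAMP response element TGACGTCA and the E-box CAGCTG, which HAND and other bHLH factors bind, were searched on both strands. Capitals mark the match.
Cnr1, the first of 3 annotated starts, chr4:33924014-33924313: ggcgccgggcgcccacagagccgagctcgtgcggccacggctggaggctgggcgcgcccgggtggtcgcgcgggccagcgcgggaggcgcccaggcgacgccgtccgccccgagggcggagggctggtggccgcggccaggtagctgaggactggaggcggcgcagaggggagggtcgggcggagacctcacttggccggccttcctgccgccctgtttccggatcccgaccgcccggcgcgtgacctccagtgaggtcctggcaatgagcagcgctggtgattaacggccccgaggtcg
Agtr2, chrX:21484374-21484673: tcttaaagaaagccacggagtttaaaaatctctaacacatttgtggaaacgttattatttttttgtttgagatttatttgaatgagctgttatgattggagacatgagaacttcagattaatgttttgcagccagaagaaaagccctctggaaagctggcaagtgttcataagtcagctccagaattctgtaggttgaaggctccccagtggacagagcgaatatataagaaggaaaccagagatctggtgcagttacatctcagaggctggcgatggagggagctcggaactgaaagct
Npy1r, chr8:66697172-66697471: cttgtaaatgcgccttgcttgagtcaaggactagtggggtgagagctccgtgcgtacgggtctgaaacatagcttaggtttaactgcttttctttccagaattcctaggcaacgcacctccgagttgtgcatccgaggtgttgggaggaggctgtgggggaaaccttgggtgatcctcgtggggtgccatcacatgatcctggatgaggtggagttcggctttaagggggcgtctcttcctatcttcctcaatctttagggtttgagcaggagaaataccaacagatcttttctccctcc
Adra2c, chr5:35278316-35278615: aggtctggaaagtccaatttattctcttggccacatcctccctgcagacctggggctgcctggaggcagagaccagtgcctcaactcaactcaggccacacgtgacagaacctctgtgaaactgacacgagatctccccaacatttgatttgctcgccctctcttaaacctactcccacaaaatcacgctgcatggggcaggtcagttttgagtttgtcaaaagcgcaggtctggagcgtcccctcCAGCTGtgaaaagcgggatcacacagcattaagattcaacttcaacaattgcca
Of these 4 windows, only that of Adra2c held a match, 1 E-box. The Cnr1 window is rich in G and C, at 76.3% of its bases, whereas that of Agtr2 holds 41.3%. Among the members whose windows are not shown, Sstr2 (chr11:113619077-113619376) held 1 cAMP response element, and neither motif was found for Adcyap1r1 or Vipr1 or in the other windows of Cnr1. Agtr1a and Cckar had no entry. Over all 32851 promoters of the table, the response element occurred in 1.79% and the E-box in 16.3%. These matches describe the letters only.

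Values were deposited on a log2 scale after GCRMA, a background correction and normalization that leaves probe sets without signal at low values, so that 1 unit is a factor of 2 and a value under 4 is close to background. The median log2 value was 4.41 to 4.68 per array, and 9074 to 9424 probe sets per array exceeded 4. The number of arrays, and not a read depth, limits the precision. Over all probe sets, arrays correlated with each other at 0.942 to 0.997 (Pearson). The 15 measured markers of sympathetic neurons, among them Th and Dbh of noradrenaline synthesis, averaged 11.4 to 11.9 in every array. At P0 their mean was 11.37 to 11.62 in Hom, 11.79 to 11.83 in Het and 11.54 to 11.78 in Wt arrays, so that every Hom array lay below every Het array. Pou4f1, a transcription factor of sensory neurons, stood out in P0 Wt replicate 1 (5.94) and replicate 4 (5.40), whereas the remaining 15 arrays gave 2.51 to 2.62.

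**Figure D1:**
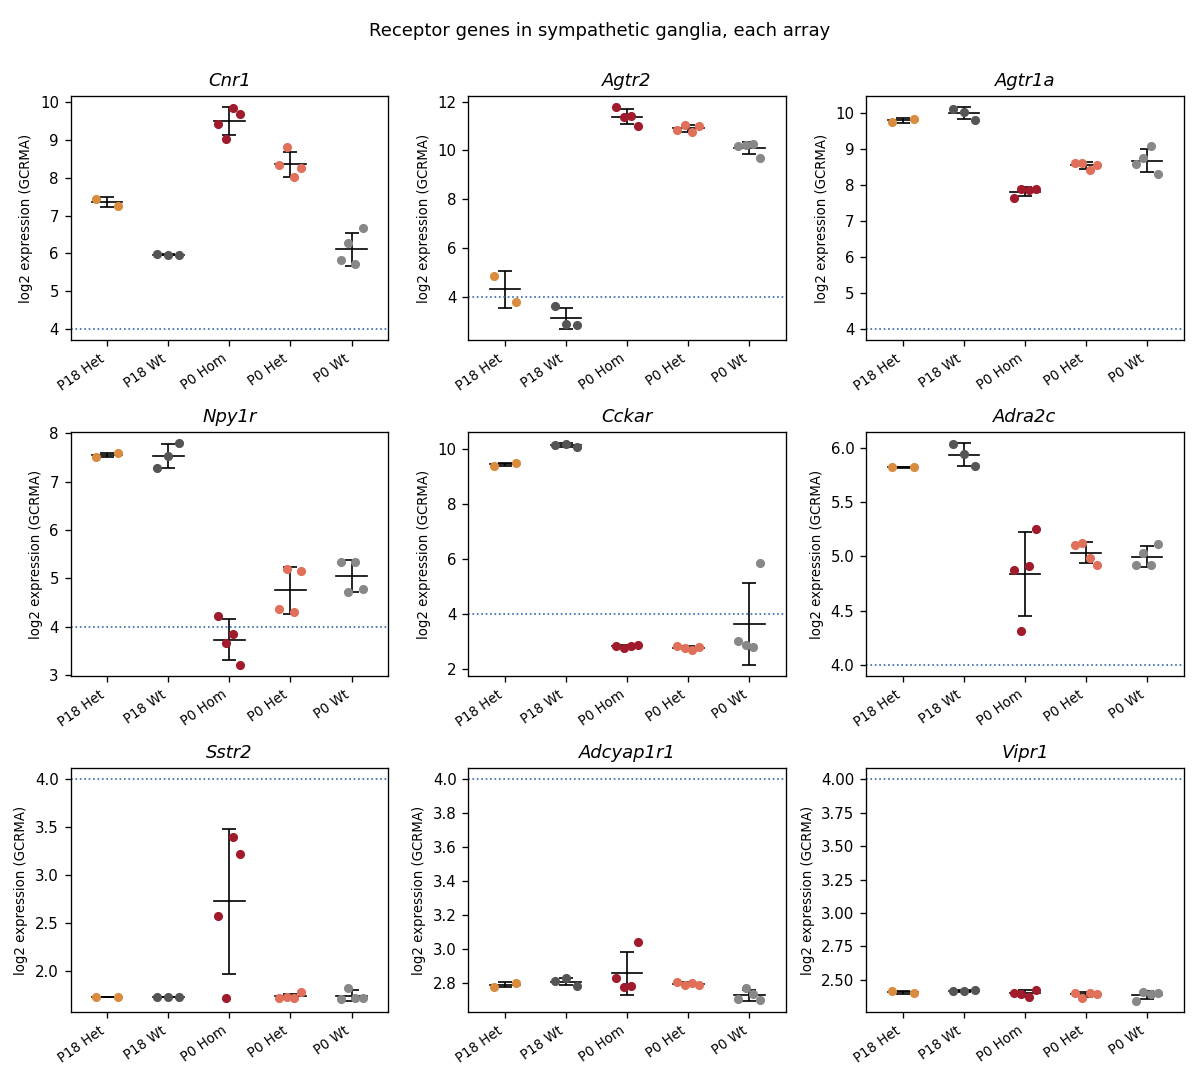
Log2 expression (GCRMA) of the 9 measured receptor genes in each array. Points are arrays, the bar and whiskers the mean ± SD of the group (P18 Het n = 2, P18 Wt n = 3, P0 groups n = 4 each), and the dotted line the value of 4 used as the filter. The vertical axes differ between panels. Cnr1 and Agtr2 were highest in P0 Hom arrays, and Cckar exceeded 9 at P18 in every array.

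Cnr1 showed the clearest gradation with the number of mutated alleles. Its log2 value was 9.42, 9.03, 9.85 and 9.69 in the 4 P0 Hom arrays, 8.33, 8.81, 8.01 and 8.26 in the 4 P0 Het arrays, and 5.81, 6.26, 5.71 and 6.66 in the 4 P0 Wt arrays. No array of one P0 genotype overlapped with those of another. The differences were 3.39 ± 0.22 between Hom and Wt and 2.24 ± 0.22 between Het and Wt (log2 ± SE of the fit), that is 10.5-fold and 4.73-fold, and Hom exceeded Het by 1.15 ± 0.22. At P18, Cnr1 was 7.44 and 7.25 in Het arrays against 5.98, 5.96 and 5.95 in Wt arrays, without overlap. The P18 difference was 1.38 ± 0.28, which was not called in the fit over all arrays.

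A gene is termed called where limma's moderated test gave a Benjamini-Hochberg adjusted p under 0.05 over all 9973 probe sets. Since the receptor genes were chosen on these arrays, their counts are set beside the share of all probe sets called, and nothing is read from them. In P0 Het against Wt ganglia, 1 of the 6 genes tested was called higher (Cnr1) and none lower, where 1.8% of all probe sets were called higher and 1.3% lower. In P0 Hom against Wt, 2 were called higher (Cnr1 and Agtr2) and 2 lower (Agtr1a and Npy1r), where 5.16% of probe sets were higher and 3.34% lower. In P0 Hom against Het, 1 was called higher (Cnr1) and 2 lower (Agtr1a and Npy1r), against 4.14% and 3.25% of probe sets. In P18 Het against Wt none of the 6 was called by limma, where 0.211% of probe sets were higher and 0.0501% lower. Without adjustment (p under 0.05), limma passed 2 of the 6 there (Agtr2 and Cnr1), where 778 of all 9973 probe sets passed. The two-sample test named in the study's methods, also unadjusted, passed 2 (Cckar and Cnr1). Over all alternatives to the fit, 1 to 1028 probe sets were called in P18 Het against Wt, so nothing is read from this count. The 3 P0 comparisons share arrays: Hom and Het were set against the same Wt arrays. The median difference of all probe sets lay within 0.06 of 0 in each comparison.

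**Figure D2:**
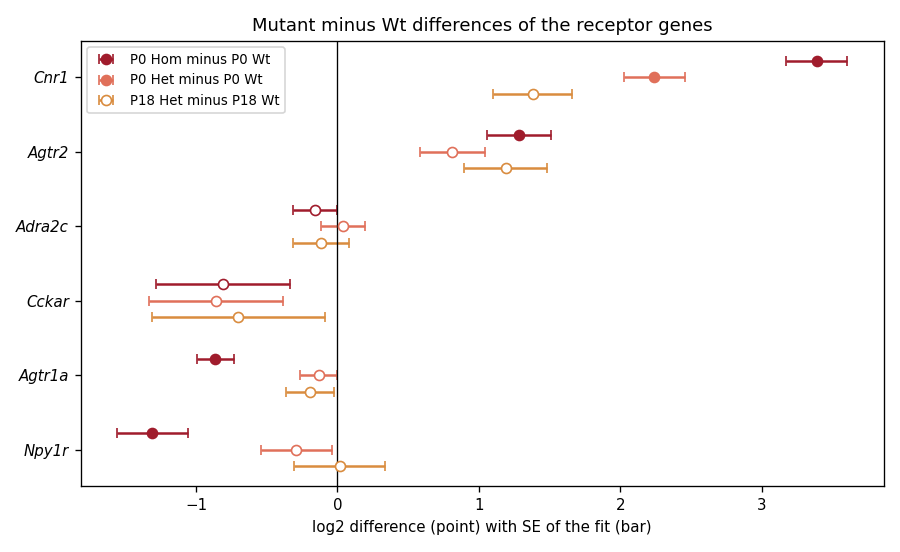
Log2 differences (points) with the SE of the fit (bars) of the 6 receptor genes past the filter, for P0 Hom minus P0 Wt, P0 Het minus P0 Wt and P18 Het minus P18 Wt. Filled points were called. Cnr1 lay farthest to the right in each comparison, at 3.39, 2.24 and 1.38, and Npy1r farthest to the left in P0 Hom, at -1.31.

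The angiotensin receptors diverged in P0 Hom ganglia, Agtr2 upwards and Agtr1a downwards. Agtr2 was 11.76, 11.35, 11.43 and 10.99 in Hom, 10.85, 11.05, 10.74 and 11.01 in Het, and 10.20, 10.22, 10.27 and 9.71 in Wt arrays. All mutant arrays lay above all Wt arrays, whereas Hom and Het arrays overlapped. Agtr2 was 1.28 ± 0.23 higher in Hom than in Wt (2.43-fold), which was called. The Het difference of 0.81 ± 0.23 was not, although it was called with only the P0 Het and Wt arrays in the fit and with array weights. Agtr1a was 7.63, 7.88, 7.84 and 7.88 in Hom, 8.60, 8.60, 8.41 and 8.54 in Het, and 8.58, 8.73, 9.07 and 8.30 in Wt arrays. The Hom arrays lay below all others, while Het arrays fell within the range of the Wt arrays. Agtr1a was lower in Hom than in Wt, with a difference of -0.86 ± 0.13, and lower than in Het, with -0.73 ± 0.13, and both were called. For Het against Wt the difference was -0.13 ± 0.13. At P18, Agtr1a was 9.73 and 9.83 in Het against 10.11, 10.02 and 9.79 in Wt arrays, with overlap.

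Npy1r followed the pattern of Agtr1a, with lower values in P0 Hom ganglia and little difference in Het. It was 4.22, 3.67, 3.84 and 3.22 in Hom, 4.37, 5.20, 4.31 and 5.16 in Het, and 5.34, 4.73, 5.34 and 4.79 in Wt arrays. Only 1 of the 4 Hom arrays exceeded 4, so that the Hom level is close to background. The difference to Wt was -1.31 ± 0.25, which was called. Hom also lay below Het, with a difference of -1.02 ± 0.25 (called) and no overlap. This call was lost without Het replicate 6, at -0.87, and without Het replicate 8, at -0.89, and also at -1.02 with no filter on low values and with only the P0 Hom and Het arrays in the fit. Between Het and Wt the difference was -0.29 ± 0.25 at P0, and at P18, where values were 7.51 and 7.58 in Het against 7.28, 7.53 and 7.79 in Wt arrays, it was 0.02 ± 0.32.

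Adra2c and Cckar were not called between genotypes at either stage. Adra2c was 4.87, 4.31, 4.91 and 5.25 in P0 Hom, 5.10, 5.12, 4.99 and 4.92 in P0 Het, and 4.92, 5.03, 4.92 and 5.11 in P0 Wt arrays. The groups overlapped, with differences to Wt of -0.16 ± 0.16 in Hom and 0.04 ± 0.16 in Het. Cckar lay between 2.69 and 2.87 in all Hom and Het arrays at P0, and at 2.78, 2.87 and 2.99 in 3 of the 4 Wt arrays. The remaining Wt array, replicate 4, gave 5.86. That array is one of the pair with Pou4f1. The other, replicate 1, had the higher mean of the 4 measured sensory markers past the filter, 6.58 against 5.96 in replicate 4, yet a Cckar value of 2.99. The part of sensory transcripts in this Cckar value was not tested. At P18, Cckar was 9.39 and 9.48 in Het against 10.15, 10.20 and 10.07 in Wt arrays, so both Het arrays lay below all Wt arrays. The difference was -0.70 ± 0.61, with an SE from the spread over all groups, P0 Wt included. With P0 Wt replicates 1 and 4 left out, Cckar and Cnr1 were both called at P18. The alternatives to the fit called from 1 to 1028 of all probe sets in this comparison.

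The 3 genes under the filter stayed near background. Adcyap1r1 ranged from 2.70 to 3.04 and Vipr1 from 2.34 to 2.43 over the 17 arrays, and neither passed 4 in any. Sstr2 lay between 1.71 and 1.82 in all arrays except 3 P0 Hom arrays, where it was 2.57, 3.39 and 3.22. The fourth Hom array, replicate 10, gave 1.71. All Hom values were thus still below 4. With no filter, none of these 3 genes was called in any comparison.

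Agtr2 and Cckar showed the largest differences between the stages among the 9 measured receptor genes, in opposite directions. Agtr2 was 4.85 and 3.79 in P18 Het arrays, against 10.74 to 11.05 in P0 Het arrays. In Wt it was 3.63, 2.92 and 2.85 at P18, against 9.71 to 10.27 at P0. All P18 Wt values and 1 of the 2 P18 Het values were below 4. The differences were -6.59 ± 0.28 in Het and -6.97 ± 0.25 in Wt. Setting the P18 Wt arrays at the value of 4, Agtr2 was at least 68.6-fold lower at P18 in Wt ganglia. Cckar averaged 9.44 ± 0.06 (SD, n = 2) in P18 Het against 2.77 ± 0.06 (SD, n = 4) in P0 Het arrays, and 10.14 ± 0.07 (SD, n = 3) in P18 Wt against 3.63 ± 1.49 (SD, n = 4) in P0 Wt arrays. Setting the P0 Het arrays at 4, Cckar was at least 43.4-fold higher at P18 in Het ganglia. In Wt the difference was 6.51 ± 0.51, and 7.31 with P0 Wt replicates 1 and 4 left out. The mean of the 4 sensory markers was also higher at P18, at 5.13 to 5.36 in Het and 5.03 to 5.25 in Wt arrays, against 3.10 to 3.42 in P0 Het and 2.77 to 6.58 in P0 Wt arrays. Of these markers, Avil was 11.7 to 12.1 in the 5 P18 arrays, against 3.91 to 4.55 in P0 Het and 4.23 to 9.51 in P0 Wt arrays, and Scn11a was 4.02 to 4.96 at P18, against 2.46 to 2.55 in P0 Het and 2.47 to 8.11 in P0 Wt arrays. Pou4f1, at 2.56 to 2.60, and Nppb, at 1.78 to 1.79, were at background at P18. The part of sensory transcripts in the P18 values of Cckar was not tested.

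Agtr1a, Npy1r and Adra2c were also higher at P18. Agtr1a differed by 1.25 ± 0.16 in Het and 1.31 ± 0.14 in Wt between P18 and P0, so the 2 angiotensin receptors ran in opposite directions between the stages as well. Npy1r differed by 2.79 ± 0.31 in Het and 2.48 ± 0.27 in Wt. Adra2c was 5.82 and 5.82 in P18 Het and 6.03, 5.95 and 5.83 in P18 Wt arrays, all above the P0 arrays of any genotype, with differences of 0.79 ± 0.19 in Het and 0.94 ± 0.17 in Wt. Cnr1 was the exception. In Wt it was 5.95 to 5.98 at P18 and 5.71 to 6.66 at P0, a difference of -0.15 ± 0.23. In Het it was 7.25 and 7.44 at P18 against 8.01 to 8.81 at P0, a difference of -1.01 ± 0.27 that was called, but not without P18 Het replicate 5.

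Of the 6 genes tested between P18 and P0, 4 were called higher and 2 lower in Het ganglia, where 22.3% of all probe sets were higher and 25.5% lower. In Wt ganglia, 4 were called higher and 1 lower, where 27.9% of all probe sets were higher and 27% lower. Whether the Het difference to Wt itself changed between P0 and P18 was tested as an interaction. By limma, none of the 6 was called there, where 0.0802% of probe sets were called higher and 0.0602% lower. Without adjustment (p under 0.05) only Cnr1 of the 6 passed, where 989 of all 9973 probe sets passed. The interaction of Cnr1 was -0.86 ± 0.35, while that of Agtr2 was 0.38 ± 0.37.

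**Figure D3:**
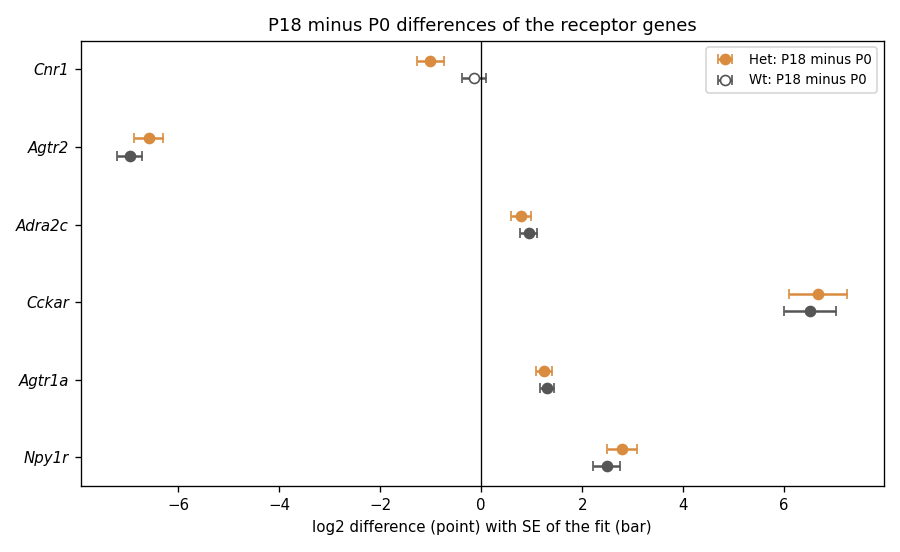
Log2 differences between P18 and P0 (points) with the SE of the fit (bars) of the 6 receptor genes, in Het and in Wt ganglia. Filled points were called. Cckar lay at 6.67 in Het and 6.51 in Wt and Agtr2 at -6.59 in Het and -6.97 in Wt, with the P18 values of Agtr2 and the P0 values of Cckar close to background.

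Ganglia hold other cells than neurons, and in RNA of whole tissue fewer cells of a type and less RNA per cell cannot be told apart. The 11 markers of fibroblasts and matrix past the filter averaged 8.09 to 8.40 in P18 Het, 8.46 to 8.50 in P18 Wt, 8.50 to 9.93 in P0 Hom, 8.89 to 9.07 in P0 Het and 9.27 to 10.3 in P0 Wt arrays. Those of mural cells, which express Agtr1a in many vessels, averaged 4.53 to 4.75 in P18 Het and 4.80 to 4.87 in P18 Wt arrays, against 5.08 to 7.34 at P0. Agtr1a was higher at P18, where mural markers were lower. In P0 Hom against P0 Wt arrays Agtr1a was lower, and mural markers averaged 5.17 to 6.51 against 5.96 to 7.34, with overlap. Any part of mural cells in these Agtr1a differences was not tested. Glial markers averaged 7.46 to 7.90 in P0 Hom, 7.34 to 7.48 in P0 Het and 7.52 to 8.79 in P0 Wt arrays, and 8.27 to 8.49 at P18. Skeletal muscle markers ranged from 4.94 to 6.93 in P0 Hom, 3.21 to 7.39 in P0 Het and 2.93 to 10.1 in P0 Wt arrays, and fat markers from 6.29 to 11.7, from 5.69 to 8.58 and from 8.85 to 10.8 in the same 3 groups. The 7 markers of chromaffin cells, of which Chga and Chgb are also expressed by sympathetic neurons, were highest in P0 Hom arrays, as was Cnr1. They averaged 8.33 and 8.34 in P18 Het against 7.82 to 7.97 in P18 Wt arrays, and 8.92 to 9.30 in P0 Hom, 8.50 to 8.85 in P0 Het and 8.12 to 8.80 in P0 Wt arrays. Hom arrays lay above all other P0 arrays, while Het and Wt arrays overlapped at P0 but not at P18. For these markers all P18 Wt arrays lay below all P0 Wt arrays, whereas Cnr1 overlapped between these groups. Pnmt, 1 of the 7 markers, was near background, at 2.67 to 4.86 in P0 Hom, 2.10 to 4.18 in P0 Het and 2.04 to 3.98 in P0 Wt arrays. It was not called between genotypes at either stage by limma. The part of chromaffin and other cells in the receptor values was not tested.

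Ordered by their group means, the 6 genes fell into a few arrangements. Cnr1 was highest in P0 Hom, then P0 Het, P18 Het, P0 Wt and P18 Wt, and only the last pair of neighbours overlapped. Agtr2 ran from P0 Hom through P0 Het, P0 Wt and P18 Het to P18 Wt, and only the first pair overlapped. Agtr1a was highest in P18 Wt, followed by P18 Het, P0 Wt, P0 Het and P0 Hom, with overlap within P18 and between P0 Wt and P0 Het. Npy1r had the same order as Agtr1a except that P18 Het came before P18 Wt, with the same overlaps. Cckar and Adra2c were highest in P18 Wt and next in P18 Het, without overlap, and their P0 groups overlapped.

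The 3 genes whose values ran most closely with each receptor were ranked by Pearson's r over the 17 arrays, as a description. The arrays share 2 stages, so that a common stage difference alone gives a high r. For Cnr1 these were Shox2 (0.967), Cbln2 (0.957) and Lypd6 (0.947), and over the 12 P0 arrays alone r was 0.961, 0.970 and 0.946. Agtr2 ran with Mpzl1 (0.995), Ly6h (0.992) and Sox11 (0.992), a transcription factor of immature neurons, and over the P0 arrays alone r was 0.887, 0.746 and 0.904. For Agtr1a the nearest were Gucy1a1 (0.983) and Gucy1b1 (0.978), the 2 subunits of soluble guanylate cyclase, and Nbl1 (0.965). Over the P0 arrays alone, r was 0.938, 0.954 and 0.856 for these 3 neighbours of Agtr1a. Cckar ran with Slc35d3 (0.996), Tspan8 (0.995) and Cpne8 (0.990), with 0.948, 0.934 and 0.83 at P0. These P0 values of r rest largely on Wt replicate 4 (5.86), the only P0 array in which Cckar exceeded 4. Npy1r ran with Lxn (0.971), Kcnip4 (0.962) and Rarres1 (0.960), with 0.792, 0.695 and 0.697 at P0, and Adra2c with Dmac2l (0.967), Zfp938 (0.962) and Slc36a1 (0.958), with 0.839, 0.838 and 0.788 at P0.

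The other receptors of the same families were mostly not detected. Of 21 listed, 14 had a probe set and 2 passed the filter, the neuropeptide Y receptors Npy2r and Npy5r. Agtr1b, Mas1, Cckbr, Cnr2, Npy4r, Npy6r, Adra1b, Vipr2, Sstr1, Sstr3, Sstr4 and Sstr5 did not pass it. Npy2r encodes the presynaptic Y2 receptor and was 4.18 and 3.38 in P18 Het against 5.40, 4.75 and 5.49 in P18 Wt arrays, without overlap (difference -1.44 ± 0.52, limma adjusted p = 0.425). Between P18 and P0 it was higher by 1.92 ± 0.43 in Wt (limma adjusted p = 0.00142) and differed by 0.64 in Het (limma adjusted p = 0.304). Npy5r was higher at P18 by 1.79 ± 0.19 in Het (limma adjusted p = 1.5e-06) and 1.58 ± 0.17 in Wt (limma adjusted p = 1.19e-06). Neither was called between P0 genotypes.

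The genes for the peptides that these receptors bind differed between P0 genotypes. Of 10 listed, 4 passed the filter, and Agt, Cck, Gast, Pyy, Ppy and Cort did not. Both in Hom and in Het ganglia at P0, 1 of the 4 was called higher (Sst) and 2 lower (Npy and Adcyap1). Of all probe sets, 5.16% were higher and 3.34% lower in Hom, and 1.8% higher and 1.3% lower in Het. The list's median difference was -0.43 in Hom and -0.10 in Het, where the median over all probe sets was 0.01 and 0.03. Npy, the ligand of the Y1 receptor, was 8.28, 8.19, 7.75 and 9.20 in Hom, 9.16, 8.99, 8.92 and 9.07 in Het, and 10.75, 11.78, 12.52 and 11.03 in Wt arrays. All mutant arrays lay below all Wt arrays, with differences of -3.17 ± 0.32 in Hom (limma adjusted p = 1.02e-05) and -2.48 ± 0.32 in Het (limma adjusted p = 0.000523). Npy fell in Het ganglia, in which the Npy1r difference of -0.29 was not called.

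Adcyap1, the precursor of PACAP, was 2.57 to 3.73 in Hom, 3.33 to 3.69 in Het and 4.83 to 7.08 in P0 Wt arrays, with all mutant arrays under 4. The differences were -2.69 ± 0.41 in Hom and -2.11 ± 0.41 in Het (limma adjusted p = 0.000463 and 0.0111). With the mutant arrays set at 4, both differences were -1.61, a lower bound of their size. The highest Wt value was that of replicate 4. Sst, the precursor of somatostatin, was 10.02, 5.92, 9.42 and 7.97 in Hom, 7.57, 7.27, 6.14 and 6.88 in Het, and 2.28, 3.08, 5.21 and 1.89 in Wt arrays. It was higher by 5.22 ± 0.78 in Hom and 3.85 ± 0.78 in Het (limma adjusted p = 0.000404 and 0.0137). Since 3 of the 4 Wt arrays were under 4, the difference with values under 4 set at 4 was 4.03 in Hom and 2.66 in Het, and the Het call was lost with P0 Wt replicates 1 and 4 left out. The Hom array with the lowest Sst, replicate 10, was also the one in which Sstr2 stayed at 1.71, with Sstr2 under 4 in every array. Replicate 10 was the lowest Hom array for Alk (9.17), Cnr1 (9.03) and Vip (10.49) as well, though not for Agtr2 or Npy. Its mean of the fat markers, 11.7, was the highest of all arrays, against 6.29 to 7.14 in the other Hom arrays. The part of fat tissue in the values of this array was not tested. Vip was 10.49 to 12.09 in Hom, 11.04 to 12.42 in Het and 7.73 to 12.19 in Wt arrays. Its differences of 1.84 ± 0.71 in Hom and 1.91 ± 0.71 in Het were not called (limma adjusted p = 0.14 and 0.166). Both were called when P0 Wt replicate 3 (12.19) was left out, at 2.67 in Hom and 2.74 in Het. With P0 Wt replicates 1 and 4 left out, they were 0.28 in Hom and 0.36 in Het and were not called. The Vip difference thus depended on which Wt arrays were kept.

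None of the 4 ligands was called in P18 Het against Wt by limma. Npy was 13.54 and 13.61 in Het against 13.81 to 14.17 in Wt arrays at P18. It was higher at P18 than at P0 by 4.54 ± 0.39 in Het (limma adjusted p = 1.87e-07) and by 2.44 ± 0.35 in Wt (limma adjusted p = 2.49e-05). In Het ganglia Adcyap1 was also higher at P18, by 2.25 ± 0.51 (limma adjusted p = 0.00165), and Sst fell by 4.26 ± 0.95 (limma adjusted p = 0.00171), with Adcyap1 under 4 in all P0 Het and Sst under 4 in both P18 Het arrays, while in Wt neither was called. The change of the Het difference between the stages was not called for any of the 4 by limma, with 2.10 ± 0.53 for Npy (adjusted p = 0.139) and 3.00 ± 0.67 for Adcyap1 (adjusted p = 0.0975).

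**Figure D4:**
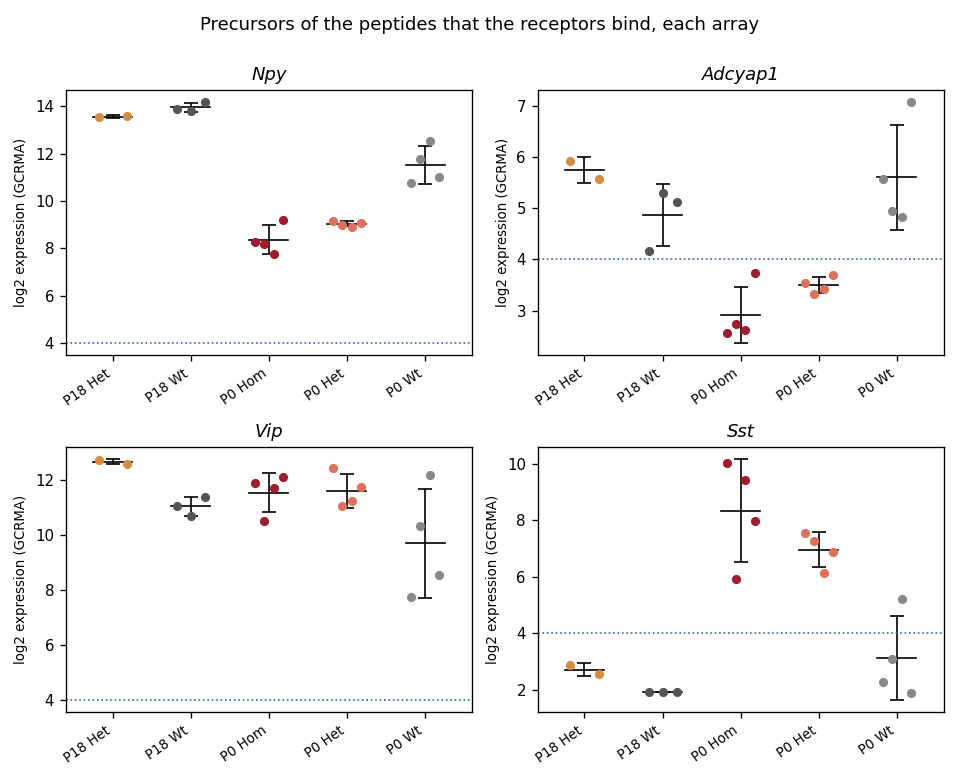
Log2 expression (GCRMA) of the 4 peptide precursors past the filter in each array, with the mean ± SD of each group (P18 Het n = 2, P18 Wt n = 3, P0 groups n = 4 each). The dotted line is the value of 4. At P0, Npy and Adcyap1 of all Hom and Het arrays lay below, and Sst above, those of all Wt arrays, and Vip overlapped.

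Among 12 measured enzymes and transporters that make or remove the ligands, 1 was called higher and 1 lower in P0 Hom ganglia. Of all probe sets, 5.16% were higher and 3.34% lower there, so nothing is read from this count. Dagla, which synthesizes the endocannabinoid 2-arachidonoylglycerol, was higher by 0.60 ± 0.17 (limma adjusted p = 0.0351), and this call was lost without P0 Wt replicate 1, 2 or 4 or P0 Hom replicate 9, 11 or 12. Maob, a monoamine oxidase, fell by 0.96 ± 0.10 in Hom (limma adjusted p = 1.55e-05) and fell by 0.58 ± 0.10 in Het (limma adjusted p = 0.00539). In Het, Maob was the only one called, where 1.8% of all probe sets were higher and 1.3% lower. Of 9 other peptide receptors past the filter, 1 was called higher in P0 Het, beside the same Het shares of all probe sets. This was the nociceptin receptor Oprl1, at 5.97 to 6.03 in Het against 4.78 to 5.54 in Wt arrays (difference 0.78 ± 0.15, limma adjusted p = 0.00978). None of these 9 was called in P0 Hom against Wt, where Oprl1 was 4.90 to 5.35 in Hom arrays.

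Of 10 receptors of other ganglion transmitters past the filter, 3 were called higher in P0 Hom and 1 in P0 Het against Wt and none lower, where 5.16% and 1.8% of all probe sets were higher and 3.34% and 1.3% lower. The list's median difference was 0.42 in Hom against 0.01 over all probe sets, and -0.19 in Het against 0.03. Ptger3, the Gi-coupled EP3 receptor of prostaglandin E, was graded with the alleles like Cnr1. It was 8.50, 8.41, 8.24 and 8.65 in Hom, 6.60, 7.36, 6.59 and 6.10 in Het, and 5.33, 5.51, 5.43 and 4.90 in Wt arrays, without overlap. The differences to Wt were 3.15 ± 0.22 in Hom (limma adjusted p = 1.9e-07) and 1.37 ± 0.22 in Het (limma adjusted p = 0.00313). Grm7, a metabotropic glutamate receptor, was 8.86 to 10.25 in Hom, 7.49 to 8.14 in Het and 7.48 to 8.25 in Wt arrays, higher by 1.78 ± 0.26 in Hom (limma adjusted p = 0.000322). Gabbr1, a subunit of the GABA-B receptor, was higher in Hom by 0.37 ± 0.09 (limma adjusted p = 0.0132), a call lost with median centring, with only the P0 Hom and Wt arrays in the fit and with P0 Wt replicate 3 and P0 Hom replicate 12 left out.

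Downstream of the receptors, calls are set beside the shares of all probe sets given above, which in P0 Hom against Wt were 5.16% higher and 3.34% lower. Of 22 G-protein subunits, 1 was higher and 1 lower in P0 Hom and none was called in P0 Het by limma. Gnas, which encodes the Gs alpha subunit, was 10.09, 8.90, 8.86 and 8.57 in Hom against 8.13 to 8.16 in Wt arrays (difference 0.96 ± 0.22, limma adjusted p = 0.0119), and without Hom replicate 9 the difference was 0.63 and still called. Gnaq, the Gq alpha subunit, fell by 0.33 ± 0.08 (limma adjusted p = 0.0196), and was not called without P0 Wt replicate 1 or without replicate 2. Of 27 effectors, 4 were higher and 1 lower in Hom, and 1 was higher in Het. The adenylate cyclase Adcy2 was 9.16, 7.46, 8.89 and 8.11 in Hom against 6.65 to 7.40 in Wt arrays (difference 1.52 ± 0.29, limma adjusted p = 0.00244). Prkce, a protein kinase C, was higher by 0.97 ± 0.17 (limma adjusted p = 0.00142) and the adenylate cyclase Adcy1 by 0.59 ± 0.13 (limma adjusted p = 0.00985). In Het, Adcy6 was higher by 0.65 ± 0.16 (limma adjusted p = 0.0351), a call lost without P0 Wt replicate 2, 3 or 4 or when any single Het array was left out. At P18, Pde1a, a calcium-dependent phosphodiesterase, was higher in Het by 1.79 ± 0.34 (limma adjusted p = 0.0401), and this call was lost when any single P18 array was left out.

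Of 17 genes for receptor desensitisation and RGS proteins, which end G-protein signals, 1 was higher and 2 lower in P0 Hom, and 1 was lower in P0 Het. Rgs2 was higher in Hom by 1.22 ± 0.22 (limma adjusted p = 0.00186). Rgs4, which acts on Gi and Gq, fell by 1.20 ± 0.19 (limma adjusted p = 0.000694), at 10.20, 11.14, 10.42 and 10.58 in Hom against 11.17 to 12.07 in Wt arrays. Rgs5, also a marker of mural cells, fell by 1.09 ± 0.19 in Hom (limma adjusted p = 0.00126) and fell by 0.72 ± 0.19 in Het (limma adjusted p = 0.0496). The 9 mural markers past the filter, Rgs5 among them, averaged 5.17 to 6.51 in P0 Hom, 5.08 to 6.30 in P0 Het and 5.96 to 7.34 in P0 Wt arrays. Since that mean holds Rgs5 itself, it is no separate measure, and the part of mural cells in the Rgs5 difference was not tested. The Het call of Rgs5 was lost without P0 Wt replicate 1, 2 or 4, or when any single Het array was left out.

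**Figure D5:**
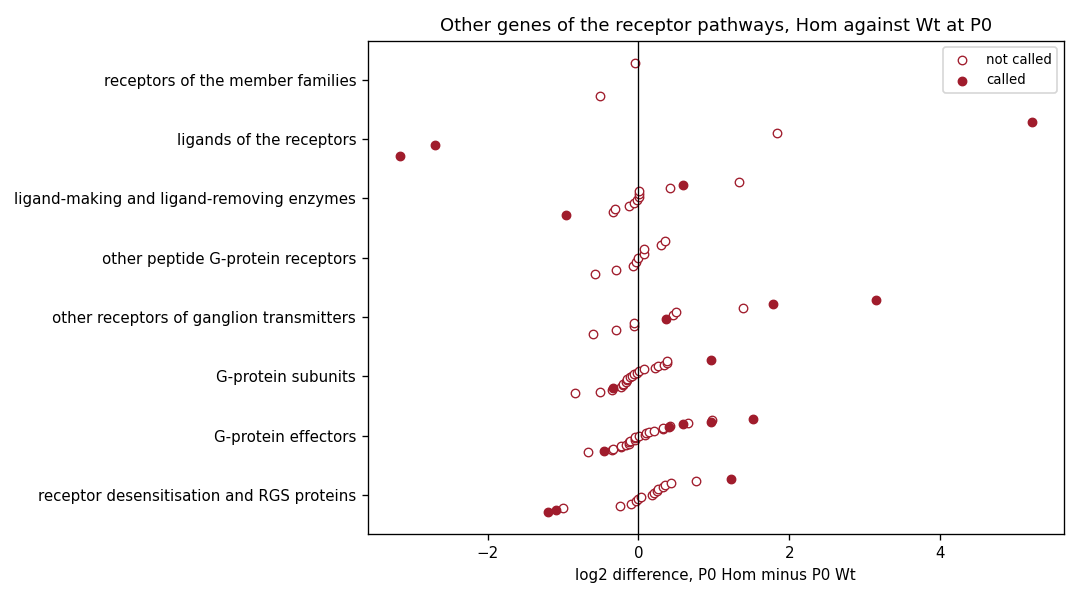
Log2 differences of P0 Hom minus P0 Wt for the genes past the filter in 8 lists around the receptors, 1 point per gene, with called genes filled. Each list has its own row, ordered by value within it. Sst lay farthest to the right at 5.22, Ptger3 at 3.15, and Npy farthest to the left at -3.17.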

How the data were processed

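RNA of pooled superior cervical and stellate ganglia was hybridised to 17 Affymetrix mouse genome arrays. The deposited values are log2 expression per probe set, which the authors obtained by GCRMA (version not given in the sources used here) with Brainarray annotations, 1 probe set per gene. They were used as deposited. Probe sets were named from the platform annotation, where 16464 of 17306 had 1 symbol and 842 none, and symbols were updated through the Entrez ID. Receptor genes, gene lists and tests were chosen with earlier results of these data known. Named beside all receptor genes were the other receptors of their families, their measured ligands, at most the 3 called genes of each other list with the largest difference, and the 3 nearest genes by correlation.

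Probe sets with a log2 value over 4 in at least 2 arrays (9973) were fitted with limma 3.58.1 in R 4.3.3 (1 mean per group over all 17 arrays, trend and robust), two-sided, with Benjamini-Hochberg adjustment over all of them and calls at an adjusted p under 0.05. The fit was tested on simulated data. No p-value is given for the receptor genes, since their choice used these arrays. Alternatives were the filter (none, or log2 over 6), plain eBayes, quantile normalization, median centring, only the arrays compared, array weights, the two-sided two-sample test named in the study's methods, each array left out, 2 pairs of arrays left out, and a replicate block.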

Additional observations from a re-analysis of the deposited data

Results flagged for a closer look

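In groups of 4 arrays, a value was picked out where its gap to the nearest other value, over the range of the group, exceeded Dixon's critical value. Of 45 groups examined, 6 met this, and chance picks out about 1 in 20 groups. Cckar in P0 Wt replicate 4 was 5.858, where the nearest array of the group had 2.992. Agtr2 in the same array was the lowest of P0 Wt at 9.706, where the nearest had 10.2. Agtr1a was lowest in P0 Hom replicate 9 at 7.628, where the nearest had 7.839. Adcyap1 was highest in P0 Hom replicate 12 at 3.733, where the nearest had 2.735 and all 4 lay under the filter's value of 4. Sstr2 was highest at 1.82 in P0 Wt replicate 2 (nearest 1.717) and at 1.771 in P0 Het replicate 8 (nearest 1.719), both far below 4.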

How the results depend on the processing

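Over 703 differences of receptor genes under an alternative, 700 moved by less than the largest SD of the groups compared, and none of the called ones changed sign. The exceptions were Cckar in P0 Hom against Het, at -0.04 with quantile normalization and with median centring against 0.05, and Cckar in Het between P18 and P0, at 6.60 with quantile normalization against 6.67. The count of 700 says little about robustness, because most alternatives could not exceed that SD. The filters, plain eBayes and only the arrays compared leave the differences unchanged, and leaving out a single array moves a group mean by less than the SD. In P0 Hom against Wt the 4 calls were kept under all alternatives except the methods' two-sample test after Benjamini-Hochberg, which called 1 (Cnr1). In P0 Hom against Het that test called 1 (Agtr1a). In P0 Het against Wt, 2 genes in place of 1 were called with only the arrays compared, with array weights and with the two-sample test unadjusted. In P18 Het against Wt, 2 in place of 0 were called in each of these 3, 2 with P0 Wt arrays 1 and 4 left out and 1 (Cnr1) with P0 Wt array 3 and P0 Hom array 12 left out. Leaving out each array gave 1 receptor gene in P0 Het against Wt, 4 in P0 Hom against Wt, 2 to 3 in P0 Hom against Het, 0 in P18 Het against Wt and in the interaction, 5 in Wt and 5 to 6 in Het between stages.

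Counts over all probe sets varied more. They ran from 60 to 1751 in P0 Het against Wt (310 in the fit reported), 142 to 1536 in P0 Hom against Wt (848), 224 to 2647 in P0 Hom against Het (737), 1 to 1028 in P18 Het against Wt (26), 4101 to 7538 in Wt between stages (5480), 3477 to 6767 in Het (4769) and 2 to 303 in the interaction (14). Replicate numbers 1 to 3 occur in P0 Wt and P18 Wt, and nothing states that they pair arrays. Deviations of same-numbered arrays correlated at -0.01, 0.07 and -0.12, and those of differently numbered arrays at -0.13 to 0.11. With 3 arrays of each stage compared, these values cannot decide whether the numbers pair arrays. With the replicate block, 5 receptor genes and 4101 probe sets were called. Of the other genes, Dagla was called in 8 of 17 alternatives, Adcy6 in 8 and Rgs5 in Het in 5, Pde1a at P18 in 5 of 14, and Gnas and Gabbr1 in Hom in 15 and 14 of 17. With 2 P18 Het arrays, values under 4 close to background, and no label for litter, sex or batch, the P18 comparison was the least precise.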
